A study of Homo sapiens with 3 samples.

Results

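The 10 genes FOS, FOSB, FOSL1, FOSL2, JUN, JUNB, JUND, ATF3, BATF and MAFF of the AP-1 family were examined for ETS1 binding in SCC25 cells. SCC25 is a line derived from a tongue squamous carcinoma, which the study places in the mesenchymal class of head and neck cancers. The genes were taken as a list of names, all 10 of which were found in GENCODE release 44 on hg19 among 20162 protein-coding genes. A peak was counted for a gene if its midpoint fell in the gene body or within 100 kb of it. This gave 118 of the 26961 nuclear peaks, and no peak was shared by the windows of different members. The labels name no treatment of the cells. Of 3 ChIP samples, 2 used an ETS1 antibody called C20 and 1 another called 501A, and the authors merged them through IDR, which keeps peaks whose ranks are reproducible, into a single list of 26970 peaks. That list holds positions and widths but no signal, no depth and no value per sample, so there is no spread between replicates and no test was made. Values are set beside those of all protein-coding genes or all nuclear peaks where these were computed, and intervals cover counting error only. They treat peaks as independent although the peaks cluster in the member windows, so no interval is a test.

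AP-1 is a dimer of basic leucine zipper (bZIP) proteins that binds the near-palindrome TGACTCA, which reads TGAGTCA on the other strand. JUN proteins can pair with each other or with FOS proteins, while FOS proteins need a JUN partner. Many of these genes are immediate early genes, which are switched on by growth factors and MAP kinases within minutes. ETS proteins and AP-1 are known partners at enhancers of invasion genes, and the ternary complex factors that act with SRF at the FOS promoter belong to the ETS family.

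ETS1 peaks lay at the start of 9 of the 10 genes. The midpoint of a peak was within 500 bp of an annotated transcription start site (TSS) of the gene itself at 7 genes, FOS, FOSL1, FOSL2, JUNB, JUND, ATF3 and MAFF, and 53.1% of all protein-coding genes had such a peak. At FOSB and JUN a peak covered the TSS but was centred further inside the gene, 589 bp and 989 bp from the nearest own TSS. Counted by coverage of a TSS, the number was therefore 9 of 10, against 56.0% of all protein-coding genes. The members had from 1 annotated TSS (JUNB) to 8 (FOSB), and the number of TSSs was not matched in these comparisons. The exception was BATF, a partner of JUN proteins best known from lymphocytes, whose nearest peak was centred 7189 bp upstream of its nearest TSS. The canonical TSS is that of the main transcript of a gene in the annotation.

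The peaks at these starts were wide. The JUNB peak, at chr19:12899256-12905152, measured 5897 bp and reached from -3044 to 2852 bp relative to the TSS. It covered 100% of this gene, which has 1 exon and is 1.83 kb long. At FOSL2 the peak over the canonical TSS (chr2:28612806-28616850) was 4045 bp wide, at FOSB (chr19:45970504-45974060) 3557 bp, at FOS (chr14:75743620-75746929) 3310 bp and at ATF3 (chr1:212780072-212783249) 3178 bp. MAFF (chr22:38597427-38599805) followed with 2379 bp, FOSL1 (chr11:65666221-65668585) with 2365 bp, JUN (chr1:59247664-59249796) with 2133 bp and JUND (chr19:18391867-18393599) with 1733 bp. The median of these 9 widths was 3178 bp. Over all 10379 protein-coding genes with a peak over the canonical TSS, the median was 1374 bp and the quartiles were 1035 and 1866 bp. All of the 9 were thus wider than the overall median and 8 of the 9 were above the upper quartile, JUND being the exception. JUNB exceeded 99.7% of those genes, FOSL2 98.5%, FOSB 97.3%, FOS 96.5% and ATF3 95.9%.

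**Figure D1:**
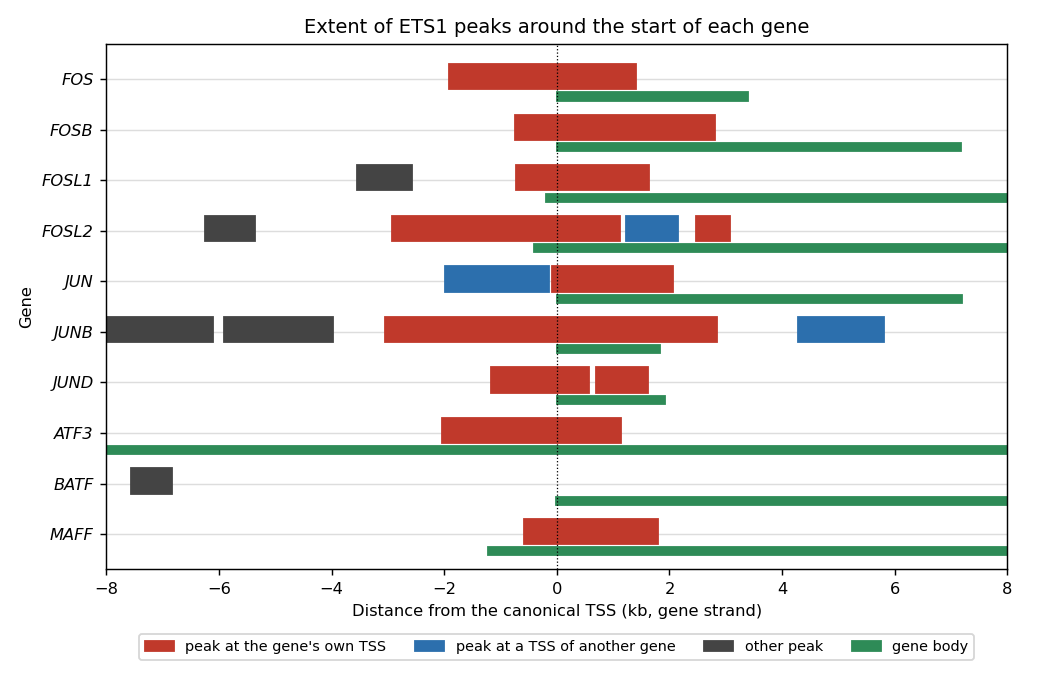
ETS1 peaks within 8 kb of the canonical TSS of each gene, drawn to scale on the strand of the gene (x axis, kb; peaks running past the frame are clipped). At 9 of the 10 genes a peak lies over the TSS, from 1733 bp wide at JUND to 5897 bp at JUNB, while BATF has none there.

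Gene length and super-enhancers go with peak width, so the same comparison was made within such genes after the widths had been seen. For genes of up to 10 kb, the median width over the canonical TSS was 2837.5 bp at the 6 members and 1559.5 bp at 2010 genes in all. For genes without a super-enhancer over the gene body it was 3178 bp at 5 members and 1339 bp at 9324 genes, and for genes with such a super-enhancer it was 3205 bp at 4 members and 1870 bp at 1055 genes.

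Some starts carried neighbouring peaks with short gaps. At JUN the peak inside the gene and the next peak upstream, chr1:59249861-59251704, were 64 bp apart. The upstream peak sits at the start of the noncoding gene LINC01135, and together they spanned from -1985 to 2055 bp relative to the JUN TSS. At JUND a second peak, chr19:18390811-18391737, followed 129 bp further on inside the single exon of the gene. At FOSL2 there were 3 peaks with gaps of 95 and 311 bp. With peaks under 1 kb apart joined, the stretch over the TSS was 12768 bp at JUNB, where 3 peaks joined, 6001 bp at FOSL2, 4041 bp at JUN and 2789 bp at JUND, and the other 5 did not change. The median over the 9 members was then 3310 bp, beside 1422 bp for all 10412 genes with such a stretch.

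The bases just upstream of these starts are given here because the wide peaks lie on them. For each gene the 120 bases are those in the 500 bp upstream of the canonical TSS with the most motif letters, under a peak at a start of the gene itself and outside annotated untranslated and coding parts. They are written 5′ to 3′ on the strand of the gene, from hg19. Capitals mark an ETS core (AGGAAA with A or C as its first base and A or G as its last, on either strand), an AP-1 site (TGACTCA on either strand), a cyclic AMP response element or CRE (TGACGTCA) or a CArG box, the site of SRF.
FOS (chr14:75745162-75745281, + strand, 369 to 250 bases upstream): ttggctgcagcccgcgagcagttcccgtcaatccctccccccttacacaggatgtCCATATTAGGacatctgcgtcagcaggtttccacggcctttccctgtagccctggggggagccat
FOSB (chr19:45970899-45971018, + strand, 355 to 236 bases upstream): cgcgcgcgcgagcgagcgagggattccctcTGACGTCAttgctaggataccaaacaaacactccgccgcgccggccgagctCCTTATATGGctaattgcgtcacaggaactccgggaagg
FOSL1 (chr11:65668085-65668204, - strand, 345 to 226 bases upstream): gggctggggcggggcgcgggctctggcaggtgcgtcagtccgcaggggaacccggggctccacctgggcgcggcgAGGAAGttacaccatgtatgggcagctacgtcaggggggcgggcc
FOSL2 (chr2:28615487-28615606, + strand, 238 to 119 bases upstream): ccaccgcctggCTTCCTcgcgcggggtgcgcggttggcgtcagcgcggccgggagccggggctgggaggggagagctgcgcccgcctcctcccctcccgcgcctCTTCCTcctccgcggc
JUNB (chr19:12902142-12902261, + strand, 158 to 39 bases upstream): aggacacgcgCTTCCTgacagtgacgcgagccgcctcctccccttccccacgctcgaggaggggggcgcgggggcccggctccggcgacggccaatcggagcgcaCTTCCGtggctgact
JUND (chr19:18392569-18392688, - strand, 256 to 137 bases upstream): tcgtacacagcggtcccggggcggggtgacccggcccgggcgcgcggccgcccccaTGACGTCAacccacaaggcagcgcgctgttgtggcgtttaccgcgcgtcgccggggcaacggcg
ATF3 (chr1:212781908-212782027, + strand, 195 to 76 bases upstream): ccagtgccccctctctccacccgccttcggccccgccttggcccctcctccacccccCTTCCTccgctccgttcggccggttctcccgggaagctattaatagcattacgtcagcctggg
MAFF (chr22:38597584-38597703, + strand, 417 to 298 bases upstream): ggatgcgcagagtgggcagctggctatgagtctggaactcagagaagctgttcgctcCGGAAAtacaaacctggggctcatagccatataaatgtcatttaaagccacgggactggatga

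The FOS stretch holds the CArG box of the well-known serum response element, 314 to 305 bases upstream of the canonical TSS. The letters aggat close before this box differ from the ETS core as defined here, so they are not marked or counted. Only the exact letters given for each motif were searched, here and in the peaks. Other forms of ETS site, AP-1 site or CRE were not searched and may be present. FOSB, the closest relative of FOS, has a CArG box at 274 to 265 bases and a CRE at 325 to 318 bases. JUND has a CRE at 200 to 193 bases, and MAFF has one at 54 to 47 bases, outside the stretch printed for it. The CRE was present in the 500 bp upstream of 3 of the 10 genes and in 2.89% of 19881 protein-coding genes with a canonical TSS, and the CArG box in 2 of 10 and 2.40%. No exact match to the AP-1 site was found in this window at any of the 10 genes, beside 6.04% of all genes. Variant AP-1 sites are not covered by this count. An ETS core was present at 6 of 10, FOSL1, FOSL2, JUNB, ATF3, BATF and MAFF, beside 80.8% of all genes. FOS, FOSB, JUN and JUND had no match to these ETS letters in the 500 bp upstream, and a peak lay over each of these starts. Those peaks also reach beyond this window. Taken whole, they held 6 ETS cores at FOS, 9 at FOSB, 5 at JUN and 5 at JUND. These counts were not set beside peaks of like width, and 94.5% of all nuclear peaks taken whole held an ETS core. BATF had the most ETS core matches of the 10, with 5 in 500 bp, and no peak over its TSS. Its 500 bp were 45% GC, while those of the other members ranged from 60% at MAFF to 77.2% at JUND. The part of base composition in these motif counts was not tested. These matches describe letters, not occupied sites. JUN held no exact match to these motifs in this window. It is not shown, since the peak over its own TSS began only at -77 bp and the next peak was counted at LINC01135. That next peak was centred 17 bp from a LINC01135 start and reached to -142 bp from the JUN TSS. Which gene its binding serves was not tested.

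The surroundings of the FOS genes differed in kind. FOS, the founding member, had 11 peaks in its window on chromosome 14 (gene body 75745529 to 75748933), and 9 of them had midpoints upstream of the gene. It was the only protein-coding gene in that window. Only 1 of its peaks was at its own TSS and 2 were at starts of noncoding genes, which left 8 at no annotated start. These 8 were 252 to 1379 bp wide, and no super-enhancer lay in the window.
FOSB had 19 peaks around its gene body at chr19:45971253-45978437, with 10 upstream and 8 downstream. Of these, 7 were at starts of other genes, such as ERCC1, RTN2 and VASP, and 11 at no annotated start. Of the latter, 5 were centred 11869 to 27932 bp upstream of the nearest FOSB start, on the side of ERCC1, a DNA repair gene.
FOSL1, which encodes FRA1 and is prominent in invasive squamous cells, had 13 peaks around chr11:65659520-65668044. Its window held 14 protein-coding genes, and 7 of its peaks were at their starts, among them CFL1, MUS81 and DRAP1. FOSL2, which encodes FRA2, also had 13 peaks, around chr2:28615315-28640184, but only 1 was at the start of another gene, its antisense RNA FOSL2-AS1. Another 10 were at no annotated start and 2 at its own.

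Among the JUN genes the counts spanned a wide range. JUNB had 26 peaks around chr19:12902300-12904129, the most of the 10 members, and 99.8% of protein-coding genes had fewer. Its window held 15 protein-coding genes, and 17 of the peaks were at starts of other genes, such as HOOK2, RNASEH2A and MAST1. JUN, which pairs with every FOS protein, had 8 peaks around chr1:59242517-59249720. Only 2 of them were at starts of other genes, both noncoding. JUND, the most broadly expressed JUN gene, had 7 peaks around chr19:18390504-18392432, of which 6 were upstream and the other inside the gene. Those at starts of other genes were 1 at GDF15, a stress-induced cytokine, and 1 at LSM4.

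The partners outside the FOS and JUN genes had fewer peaks, except MAFF. ATF3, a stress-induced partner of JUN proteins, had 5 peaks around chr1:212738676-212794119. Its peak lay over the canonical TSS, which is inside the annotated gene body. Another of the 5, 91353 bp downstream, was at the start of BATF3, itself a bZIP gene. BATF had 4 peaks around chr14:75988798-76013336, which were 328 to 1062 bp wide. A pair of them, centred 93247 and 94323 bp upstream of the nearest BATF start, was at the start of JDP2, a repressor of AP-1. MAFF, a small MAF protein without a transactivation domain, had 12 peaks around chr22:38596774-38612514, of which 5 were at starts of other genes, among them PLA2G6 and TMEM184B.

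**Figure D2:**
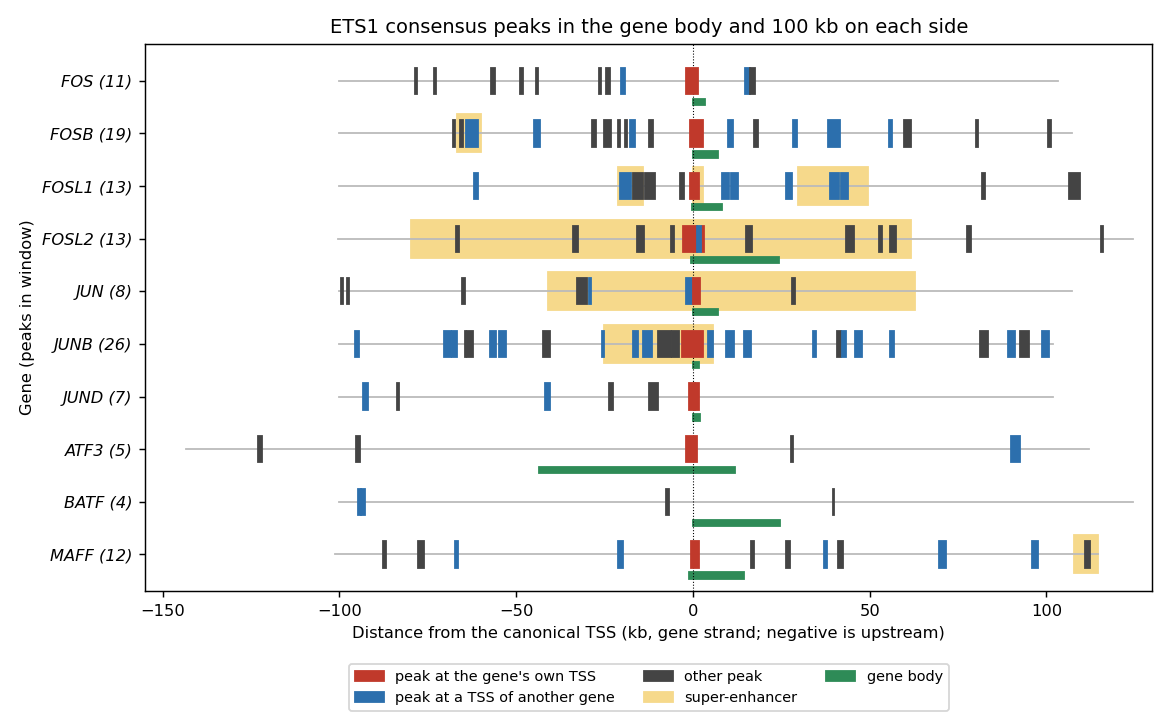
ETS1 peaks in the window of each gene against the distance from its canonical TSS (x axis, kb, on the strand of the gene; peaks narrower than 0.5 kb are drawn 0.5 kb wide), with the number of peaks in brackets. Red peaks are at a TSS of the gene and blue peaks at a TSS of another gene. Super-enhancers are shaded in the windows of FOSB, FOSL1, FOSL2, JUN, JUNB and MAFF.

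All 10 genes had at least 1 peak in the window, as did 87.5% of protein-coding genes. In order of the counts, JUNB had 26, FOSB 19, FOSL1 and FOSL2 13 each, MAFF 12, FOS 11, JUN 8, JUND 7, ATF3 5 and BATF 4. There is no spread over samples by which neighbours in this order could be told apart. The median was 11.5 peaks over the members and 4 over all 20162 genes, and only BATF was not above the latter. Windows with many genes hold many starts, so each member was also set beside genes whose windows held a number of protein-coding genes within 2 of its own, a comparison added after the counts were known. FOS had more peaks than 96.1% of such genes, FOSL2 than 96.9%, FOSB than 98.6% and JUNB than 99.2%. JUN (89.2%) and MAFF (92.4%) were also in the upper part. FOSL1 moved down from more than 90.7% of all genes to more than 70.1% of those in windows as dense as its own, and JUND from 67.2% to 40.4%.

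**Figure D3:**
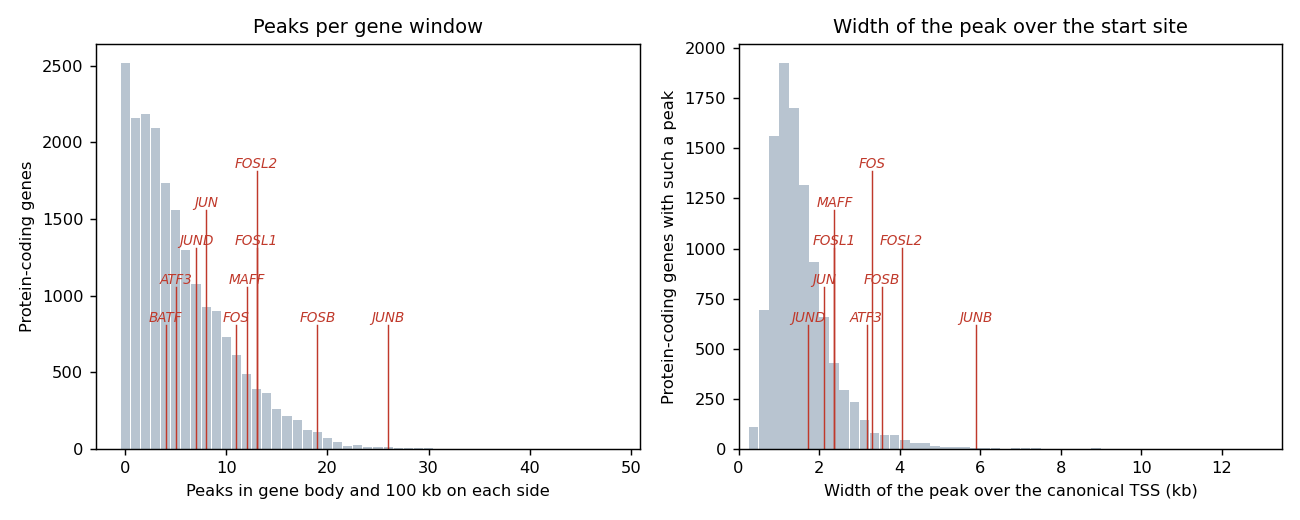
Left, number of protein-coding genes (y axis) by the number of ETS1 peaks in the window (x axis); right, number of genes by the width of the peak over the canonical TSS (x axis, kb), with the members marked by red lines whose height has no meaning. On the left BATF is at 4 and JUNB at 26, beside a median of 4 for all genes, and on the right all 9 members with such a peak are above the median of 1374 bp.

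Of the 118 peaks, 9 were at a TSS of the member itself within 500 bp, and 2 more covered its TSS with a midpoint further away. Another 46 (39.0%) were within 500 bp of a TSS of another gene, protein-coding in 39 cases. The other 61 were at no start. By the class of the nearest TSS of any gene, 46.6% of the 118 were at promoters (95% exact binomial interval 37.4 to 56.0%), beside 43.3% of all nuclear peaks. Intragenic peaks made up 25.4% (17.9 to 34.3%) beside 29.1%, and distal intergenic peaks 18.6% (12.1 to 26.9%) beside 19.1%. By these classes the windows resembled the whole list. The peaks had a median width of 1378.5 bp beside 969 bp for all nuclear peaks, and 10 of the 118 (8.47%, interval 4.14 to 15.03%) were over 3000 bp wide, beside 2.65% of all. Of those 10, 5 were at the starts of FOS, FOSB, FOSL2, JUNB and ATF3, and the others were the peak at chr19:12892385-12896196 upstream of JUNB and those at PPP1R13L, VASP, OVOL1 and DRAP1. The last peak inside a window was 99551 bp from FOSL1, next to OVOL1, and the first outside one was 100401 bp from MAFF, at CSNK1E.

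Super-enhancers are long stretches of strong H3K27Ac, a mark of active chromatin. Those of SCC25 were taken as called by the authors and are named here by their rank of H3K27Ac signal. A peak in a super-enhancer was present in the windows of 6 of the 10 genes, FOSB, FOSL1, FOSL2, JUN, JUNB and MAFF, beside 17.1% of all protein-coding genes. A super-enhancer overlapped the gene itself at 4, JUNB, FOSL2, JUN and FOSL1, beside 6.66% of all genes. Of the 118 peaks, 31 (26.3%, exact binomial interval 18.6 to 35.2%) overlapped a super-enhancer, beside 17.2% of all nuclear peaks. Of those 31, 11 were in a single super-enhancer at FOSL2 and 7 in a single one at JUNB. The interval does not allow for this clustering.
The super-enhancer of rank 15 (chr19:12877011-12908061, 31.1 kb) overlaps JUNB, HOOK2 and PRDX2 and carried 7 peaks, or 2.25 per 10 kb. That of rank 88 (chr2:28535872-28677471, 141.6 kb) overlaps FOSL2 and BABAM2 and carried 11 peaks, 0.777 per 10 kb. That of rank 401 (chr1:59186904-59290729, 103.8 kb) overlaps JUN and no other protein-coding gene and carried 5 peaks, 0.482 per 10 kb. FOSL1 had a short one of its own, rank 847 (chr11:65664985-65667940, 3.0 kb), with 1 peak. JUNB thus had the most peaks per length of the 3 longer ones and JUN the fewest. A further 2 in the FOSL1 window lay over other genes (rank 397 at CFL1 and rank 406 at DRAP1), as did rank 355 in the FOSB window, over PPP1R13L, POLR1G and ERCC1, and rank 706 in the MAFF window, over CSNK1E and 93224 bp from MAFF. FOS, JUND, ATF3 and BATF had none in the window. FOS, FOSB and ATF3 therefore had wide peaks at their starts with no super-enhancer over the gene.

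Motifs were counted in 600 bp around the midpoint of each peak. An ETS core was present in 84.7% of the 118 peaks (exact binomial interval 77.0 to 90.7%) and in 89.3% of all nuclear peaks. In 200 bp the ETS core was in 42.4% (exact binomial interval 33.3 to 51.8%) beside 55.4% of all, a wider gap than in 600 bp. Over whole peaks it was in 96.6% beside 94.5% of all. An AP-1 site was present in 28 of the 118 (23.7%, interval 16.4 to 32.4%), beside 25.2% of all. AP-1 sites were divided unevenly between starts and other places. Of the 55 peaks within 500 bp of any TSS, 2 held one (3.64%, interval 0.443 to 12.5%), and of the 63 others 26 did (41.3%, interval 29.0 to 54.4%). The same shares over all nuclear peaks were 9.46% and 37.3%. Thus the contrast was present in the whole list as well. The FOSB window had the most such peaks, 7 of 19, followed by FOSL2 and JUN with 4 each, FOS and JUNB with 3, MAFF and JUND with 2, and FOSL1, ATF3 and BATF with 1. GC content differed between these kinds of peak, with a median of 65.0% at the 55 and 57% at the 63, and its part in the motif shares was not tested. Taking the whole peak, the wide peaks over the starts of FOSL1, FOSL2 and JUNB held 2, 1 and 1 AP-1 sites, and those over FOS, FOSB, JUN, JUND, ATF3 and MAFF held none.

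**Figure D4:**
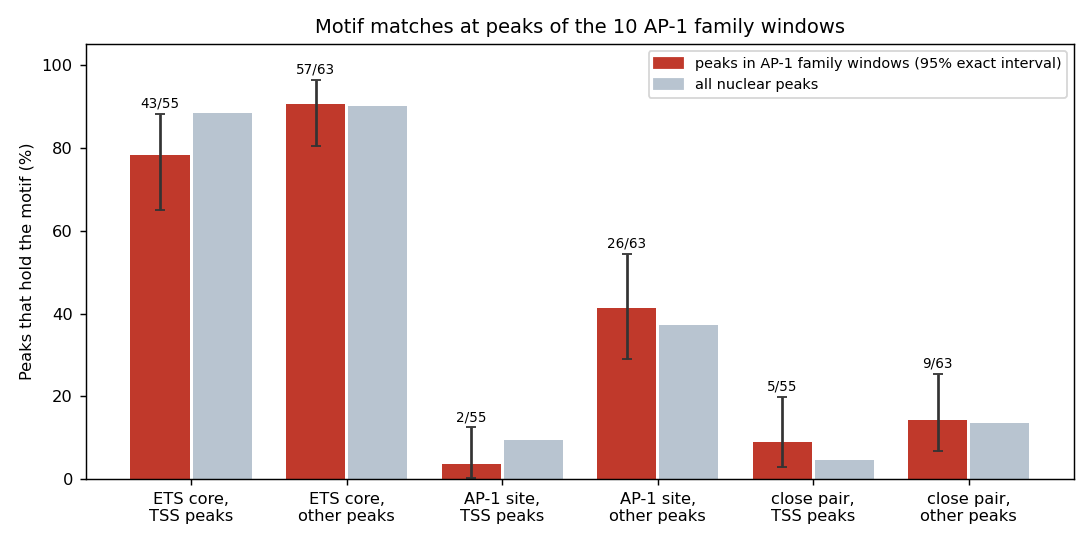
Share of peaks that hold an ETS core or an AP-1 site in 600 bp, or both at most 30 bp apart in the whole peak (y axis, %), for peaks in the 10 windows (red, with 95% exact binomial intervals and counts) and for all nuclear peaks (grey), split by whether the midpoint is within 500 bp of any TSS (TSS peaks) or not. AP-1 sites were in 2 of 55 TSS peaks and 26 of 63 other peaks of the windows, and all nuclear peaks had 9.46% and 37.3%.

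An AP-1 site and an ETS core at most 30 bp apart were found in 14 of the 118 peaks (11.9%, exact binomial interval 6.64 to 19.1%), beside 9.75% of all nuclear peaks. The 14 peaks were spread over the windows of 8 members, with 3 each at FOS and JUN, 2 each at FOSB and FOSL1, and 1 each at FOSL2, JUNB, JUND and MAFF. ATF3 and BATF had none. The closest printable pair of each window is shown, since ETS and AP-1 proteins are known to bind side by side at such elements. Each stretch runs 25 bases beyond the pair unless the peak ends first, on the + strand of hg19, with ETS cores and AP-1 sites in capitals.
FOS (chr14:75672462-75672525, + strand): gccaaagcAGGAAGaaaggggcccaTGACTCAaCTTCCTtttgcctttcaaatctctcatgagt
FOSB (chr19:45927675-45927748, + strand): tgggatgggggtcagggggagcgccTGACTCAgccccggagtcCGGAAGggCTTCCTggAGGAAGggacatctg
FOSL1 (chr11:65666810-65666888, + strand): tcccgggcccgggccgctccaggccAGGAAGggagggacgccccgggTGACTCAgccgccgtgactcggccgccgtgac
FOSL2 (chr2:28631821-28631896, + strand): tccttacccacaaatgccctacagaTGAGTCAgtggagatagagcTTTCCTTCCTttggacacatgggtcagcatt
JUN (chr1:59347347-59347414, + strand): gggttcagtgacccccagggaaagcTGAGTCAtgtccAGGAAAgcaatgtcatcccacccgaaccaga
JUNB (chr19:12897086-12897167, + strand): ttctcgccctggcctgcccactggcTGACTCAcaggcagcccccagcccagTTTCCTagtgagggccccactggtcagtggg
JUND (chr19:18485361-18485445, + strand): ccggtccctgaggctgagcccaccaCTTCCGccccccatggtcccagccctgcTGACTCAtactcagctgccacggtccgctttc
MAFF (chr22:38531492-38531574, + strand): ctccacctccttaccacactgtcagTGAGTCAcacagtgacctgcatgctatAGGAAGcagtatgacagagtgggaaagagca

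The FOS pair, with 1 base between the sites, lies between genes at -73041 bp from the canonical FOS TSS in a peak of 516 bp. The JUN pair, with 5 bases between the sites, lies in an intron of LINC01135 at -97656 bp from the canonical JUN TSS. A further JUN pair lies 28531 bp downstream of the TSS, inside the super-enhancer of rank 401. The FOSL1 pair, with 16 bases between the sites, is in an intron of FOSL1, 999 bp downstream of the canonical TSS, under the peak that covers the TSS and inside the super-enhancer of rank 847. It was the only pair in a peak over a member's own start. The FOSL2 pair lies 16124 bp downstream of the canonical TSS in an intron of FOSL2, and the JUNB pair at -5186 bp between genes, both inside the super-enhancers over these genes. The pairs of FOSB, JUND and MAFF were in peaks at the starts of ERCC1, GDF15 and PLA2G6.

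The other bZIP genes were examined as a list of 31 that holds mainly ATF, CREB, MAF, NFE2, BACH and CEBP genes. A peak midpoint lay within 500 bp of an own TSS at 29 of the 31, beside 53.1% of all protein-coding genes. The exceptions were NFE2 and NFE2L3. Counted by coverage the number was also 29 of 31, beside 56.0% of all. Their median was 7 peaks per window, from 1 at NFE2L3 to 16 at MAFK, a small MAF gene like MAFF. A super-enhancer peak was in the window at 4 of the 31, CEBPB with 8 such peaks, CREB1, NFE2L2 and NFE2L3. The share over all protein-coding genes was 17.1%.
A list of 20 kinases, SRF, ETS factors at the serum response element and genes of AP-1 turnover gave 17 with a peak midpoint within 500 bp of an own TSS and 18 with a peak over one. The shares over all protein-coding genes were 53.1% and 56.0%. Its median was 5 peaks per window. A super-enhancer peak was in the window at 4 of the 20, SRF, ELK3, MAPK3 and ZFP36, beside 17.1% of all genes. ZFP36, which promotes decay of immediate early mRNAs, had the most peaks in the window with 12, and MAPK10, the JNK gene known mainly from neurons, had 0. The SRF gene had 10 peaks, with a peak of 2957 bp over its TSS, and ELK3 had 6, of which 5 were in a super-enhancer.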

How the data were processed

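ETS1 ChIP-Seq of SCC25 cells was deposited as 1 list of consensus peak positions (hg19), pooled from 3 samples, with no signal column. Per the labels and methods, the authors mapped reads with Bowtie 1.1.1, keeping reads with 1 locus, merged files with SAMtools 1.3, called peaks in MACS2 at low stringency with pooled input as control, and kept the optimal IDR set. Depth per sample is not in the list, and a wide peak may hold several sites that it does not resolve.

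Genes and start sites came from GENCODE 44 on GRCh37, the nuclear sequence of hg19. Mitochondrial peaks were left out. Super-enhancers were those called by ROSE from H3K27Ac in the study's enhancer table; its lower ranks were not analysed here. Named genes were the 10 members, genes at member peaks or super-enhancers, and the extremes of 2 further lists, with other genes of those lists named after their values were seen. Members and lists were chosen with earlier results of these data known. Of the peaks with a close motif pair, 1 in a coding or untranslated part was not printed. Intervals are exact (Clopper-Pearson, 95%). Comparisons by gene density, gene length and super-enhancer, and the joining of peaks, were added after values were seen. Counting code was tested on planted peaks. Intervals used scipy 1.17.1, and sequence was read through pysam 0.24.0 under Python 3.11.15.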

Additional observations from a re-analysis of the deposited data

How the results depend on the processing

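Of 37 alternatives to 8 results, 25 stayed within 1.5 times the count or inside the interval of the share. With 50 kb on each side the windows held 75 peaks (median 7 per member, beside 3 for all protein-coding genes) and 36% of peaks were in a super-enhancer, and with 250 kb they held 238 (median 20.5 beside 9). The first 13485 peaks of the list gave 72 (median 6), and peaks at least as wide as the median a median of 6 per member. The meaning of the order of the list is not documented, so its first part may not be a stricter set. With 200 bp around the midpoint an AP-1 site was in 16.1% of peaks (12.2% of all nuclear peaks). An ETS core was in 42.4% (exact binomial interval 33.3 to 51.8%), beside 55.4% of all. This interval is not a test, since the peaks are clustered in the member windows. The greater width of the member peaks, of which 200 bp is a smaller part, was not accounted for. Over whole peaks the shares with an AP-1 site and an ETS core were 34.7% (33.0% of all) and 96.6% (94.5% of all). Peaks at an own start were found at 9 members within 1500 bp, beside 58.1% of all protein-coding genes. By the canonical TSS only, they were found at 5 members. A super-enhancer peak was found at 4 members within 50 kb. Shares of all genes are not given for these last 2 settings, so they are not set against a background. No paired analysis was possible because the list pools the samples, so no sample could be left out.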
